A study of Mus musculus with 8 samples.

Results

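Scavenger receptors are surface proteins with which phagocytes and vascular cells take up modified lipoproteins, bacterial products, dying cells and free haemoglobin. Here 10 genes of this kind (Marco, Msr1, Cd36, Mrc1, Cd163, Stab1, Scarb1, Scarb2, Olr1 and Cd68) were taken by symbol out of the 32227 genes measured, and all 10 were found. The list was drawn up without a threshold on any value, but with earlier results of these data known. CD45+ cells were isolated with magnetic beads from the non-perfused brains of 8 male C57Bl/6J mice, 5 to 6 months of age by the sample labels (the methods give a younger range), and their RNA was counted cell by cell as unique molecular identifiers (UMIs) with PIPseq, in which cells are captured in particle-templated droplets. Each mouse gave 1 library. The mice had received a single intraperitoneal injection of LPS (lipopolysaccharide, a bacterial outer-membrane glycolipid) at 15000000 EU/kg or the same volume of saline 24 h earlier. Their brains were dissociated either with the solvent DMSO or with inhibitors of transcription and translation (actinomycin D, triptolide and anisomycin) added to the buffers. The 4 combinations (saline with DMSO, saline with inhibitors, LPS with DMSO, LPS with inhibitors) held 2 libraries each, replicate 1 and replicate 2, and the replicate number is the batch of the labels. The comparisons asked how systemic LPS changed the receptors in each cell class and whether the ex vivo treatment changed their measured levels.

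In the mouse brain the members divide by cell and by ligand. Marco and Msr1 (SR-A1) are class A receptors, trimers with a collagen-like stalk that bind bacteria and polyanionic ligands. Cd36, Scarb1 (SR-B1) and Scarb2 (LIMP-2) are class B receptors for fatty acids, high-density lipoprotein and, inside the cell, the lysosomal enzyme glucocerebrosidase. Mrc1 (CD206, the mannose receptor), Stab1 (stabilin-1) and Cd163 (the haemoglobin-haptoglobin receptor) are textbook surface proteins of perivascular and meningeal macrophages, Olr1 (LOX-1) binds oxidised low-density lipoprotein, and Cd68 is a heavily glycosylated lysosomal membrane protein of phagocytes. Resting microglia are known for low surface levels of most of these receptors.

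Filters on each barcode (at least 800 and under 45000 UMIs, at least 250 and under 6500 genes, under 5% mitochondrial UMIs) kept 119053 cells, 12039 to 17364 per library, from totals of 90352359 to 141182123 UMIs per library. Of their barcodes, 125 occurred in 2 or more libraries. Cells were assigned to microglia, macrophages, monocytes, neutrophils and endothelial cells with marker lists that hold no member. The gate left 8.29 to 13.6% of cells in saline libraries and 18.5 to 20.5% in LPS libraries without a class. Microglia numbered 10301 to 13368 per saline library and 8398 to 12178 per LPS library, with a median of 2217 to 3191 and 4843 to 5598.5 UMIs per cell. Macrophages numbered 393 to 790 and 220 to 294, monocytes 108 to 276 and 744 to 1160, neutrophils 49 to 199 and 243 to 398, and endothelial cells 212 to 378 and 75 to 140. At least 11 of the 12 markers of macrophages were detected in macrophages of every library, and all 12 microglial markers in microglia. The summed level of those lists nevertheless differed between treatments: microglial markers stood at 41094 to 42870.5 CPM (counts per 1000000 UMIs of the class in a library) in saline microglia and 7446.59 to 8496.31 CPM in LPS microglia, and macrophage markers at 10451.8 to 11242 CPM in saline macrophages and 3366.59 to 4593.18 CPM in LPS macrophages. Microglial markers were also present in macrophages, at 5417.05 to 5794.1 CPM with saline and 573.587 to 826.34 CPM with LPS. The endothelial gate held its own 12 markers at 23283.2 to 26802.1 CPM with saline and 14874.5 to 17195.8 CPM with LPS. It also carried pericyte markers (all 6 detected) at 2489.07 to 3473.09 CPM with saline and 342.041 to 2165.31 CPM with LPS, microglial markers (at least 9 of 12) at 2849.87 to 3197.3 and 881.062 to 1244.84 CPM, and monocyte markers (at least 9 of 12) at 1788.44 to 2072.17 and 952.735 to 1361.27 CPM. Markers of other cells also moved with LPS. In microglia monocyte markers held 44.4 to 56.8 CPM with saline and 139 to 169 CPM with LPS, macrophage markers 71.7 to 87.8 and 110 to 149.7 CPM, and neutrophil markers 13.4 to 80.2 and 214 to 269.95 CPM, all 12 of each list being detected. In monocytes dendritic cell markers (at least 6 of 8 detected) held 159 to 375 CPM with saline and 13.1 to 29.4 CPM with LPS, macrophage markers 946 to 1343 and 494 to 599.6 CPM, and microglial markers 1996 to 3102 and 407 to 606 CPM. In macrophages dendritic cell markers held 184 to 344 CPM with saline and 30.8 to 42.2 CPM with LPS. What these marker levels contributed to the changes below was not tested.

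The upstream sequence of 3 members is shown because they stand for 3 of the changes that follow, a rise from near 0 in microglia (Marco), a large fall in macrophages (Stab1), and a smaller fall of a lysosomal gene (Cd68). RefSeq promoters on GRCm38.p6, a build other than the GRCm39 of the counts, were at hand for 8 of the 10 members. Each line gives the 250 bases before the annotated start, 5′ to 3′, with motif matches in capitals.
Marco promoter, chr1:120505025-120505274 (− strand): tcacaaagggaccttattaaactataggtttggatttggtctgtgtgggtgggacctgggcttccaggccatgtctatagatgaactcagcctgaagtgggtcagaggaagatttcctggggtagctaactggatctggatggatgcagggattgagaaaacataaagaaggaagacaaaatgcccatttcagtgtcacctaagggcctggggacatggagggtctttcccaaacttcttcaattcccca
Stab1 promoter, chr14:31168642-31168891 (− strand): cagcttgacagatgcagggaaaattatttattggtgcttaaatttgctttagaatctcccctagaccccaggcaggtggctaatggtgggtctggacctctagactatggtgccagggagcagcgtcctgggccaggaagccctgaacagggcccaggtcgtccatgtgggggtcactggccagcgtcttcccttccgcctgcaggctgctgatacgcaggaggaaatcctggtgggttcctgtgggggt
Cd68 promoter, chr11:69666171-69666420 (− strand): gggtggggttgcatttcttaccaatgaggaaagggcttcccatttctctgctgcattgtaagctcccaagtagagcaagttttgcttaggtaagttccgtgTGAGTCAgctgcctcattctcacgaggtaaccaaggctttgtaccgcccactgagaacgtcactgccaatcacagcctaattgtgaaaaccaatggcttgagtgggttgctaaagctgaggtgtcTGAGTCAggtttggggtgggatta
Searched on both strands were an NF-kB motif (GGGA, any 2 bases, then TTCC), AP-1 (TGANTCA), PU.1 (GAGGAAGT) and an E-box (CACGTG), and no match of one overlapped a match of another in these windows. Among 32851 mouse promoters of this length, 1.21% held the first, 6.75% the second, 2.44% the third and 6.02% the fourth. The Cd68 promoter held AP-1 letters 149 and 24 bases before the start, and that of Olr1 60 bases before it. No match was found in the windows of Marco, Mrc1, Cd36, Scarb2, Cd163 and Stab1.

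With systemic LPS measured Msr1 was higher in all 5 classes, and so was Marco. Both were also higher in lymphocytes (gated B, T and NK cells) and in RNA outside cells. In macrophages Marco was under the level expected from free RNA in 3 of 4 LPS libraries, an expectation that depends on how free RNA was scaled. Marco could not be tested after subtraction there or in neutrophils. The other receptors rose in some classes and fell in others. The UMIs of each class were summed per library, 4 saline against 4 LPS libraries, and every gene with enough counts was tested with edgeR's quasi-likelihood test, with p-values adjusted by Benjamini-Hochberg over all genes tested in the class. A gene was called at an adjusted p under 0.05, and log2 changes of LPS against saline are given ± SE. In microglia 8 of 10 members were called, 4 higher and 4 lower, where 65.5% of all genes tested were called (30.1% higher and 35.4% lower), and of the 4 higher ones Scarb1 changed sign when scaled by library totals. In macrophages 7 of 9 were called, 2 higher and 5 lower (background 50.1%, 24.9% higher and 25.2% lower), and in monocytes 7 of 9, 4 higher and 3 lower (background 35.2%, 16.7% higher and 18.5% lower). In neutrophils 2 of the 5 tested members were called, both higher (background 22.4%, 11.6% higher and 10.8% lower), and in endothelial cells 4 of 7, 2 higher and 2 lower (background 39.6%, 19.5% higher and 20.1% lower). With at most 10 genes behind each share, the shares were not tested against the background. By CPM, among tested members, the LPS range stood wholly above the saline range for 2 in microglia (13.1% of genes tested), 2 in macrophages (12.9%), 4 in monocytes (13.8%), 2 in neutrophils (8.95%) and 2 in endothelial cells (12.7%). It stood wholly below for 5 members in microglia (59.5%), 5 in macrophages (36.5%), 4 in monocytes (19.3%), 0 in neutrophils (13.2%) and 2 in endothelial cells (24.7%). Members that were not tested had too few counts: 1 in macrophages, 1 in monocytes, 5 in neutrophils and 3 in endothelial cells.

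**Figure D1:**
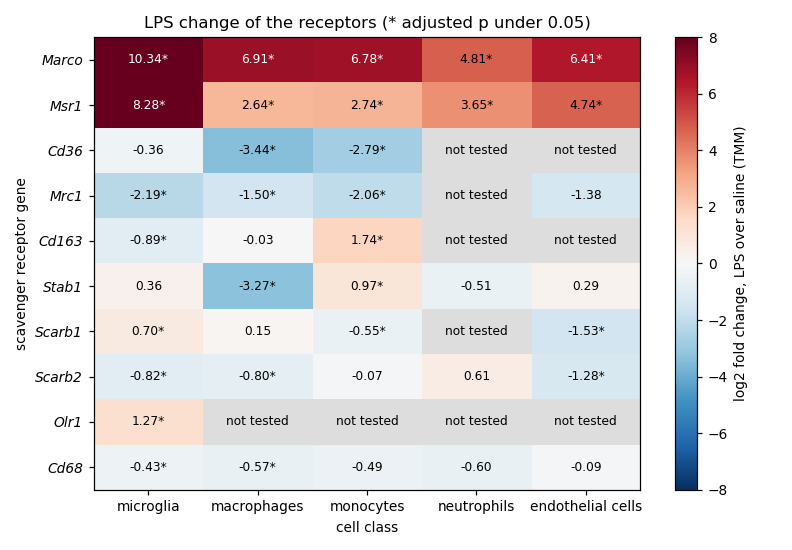
Log2 fold change of LPS against saline for the 10 receptors (rows) in 5 cell classes (columns), from edgeR on sums over 4 saline and 4 LPS libraries. Red is higher with LPS and blue lower, an asterisk marks an adjusted p under 0.05, and grey cells were not tested. Marco and Msr1 are red in every class, whereas Cd36, Mrc1 and Stab1 are blue in macrophages.

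**Figure D2:**
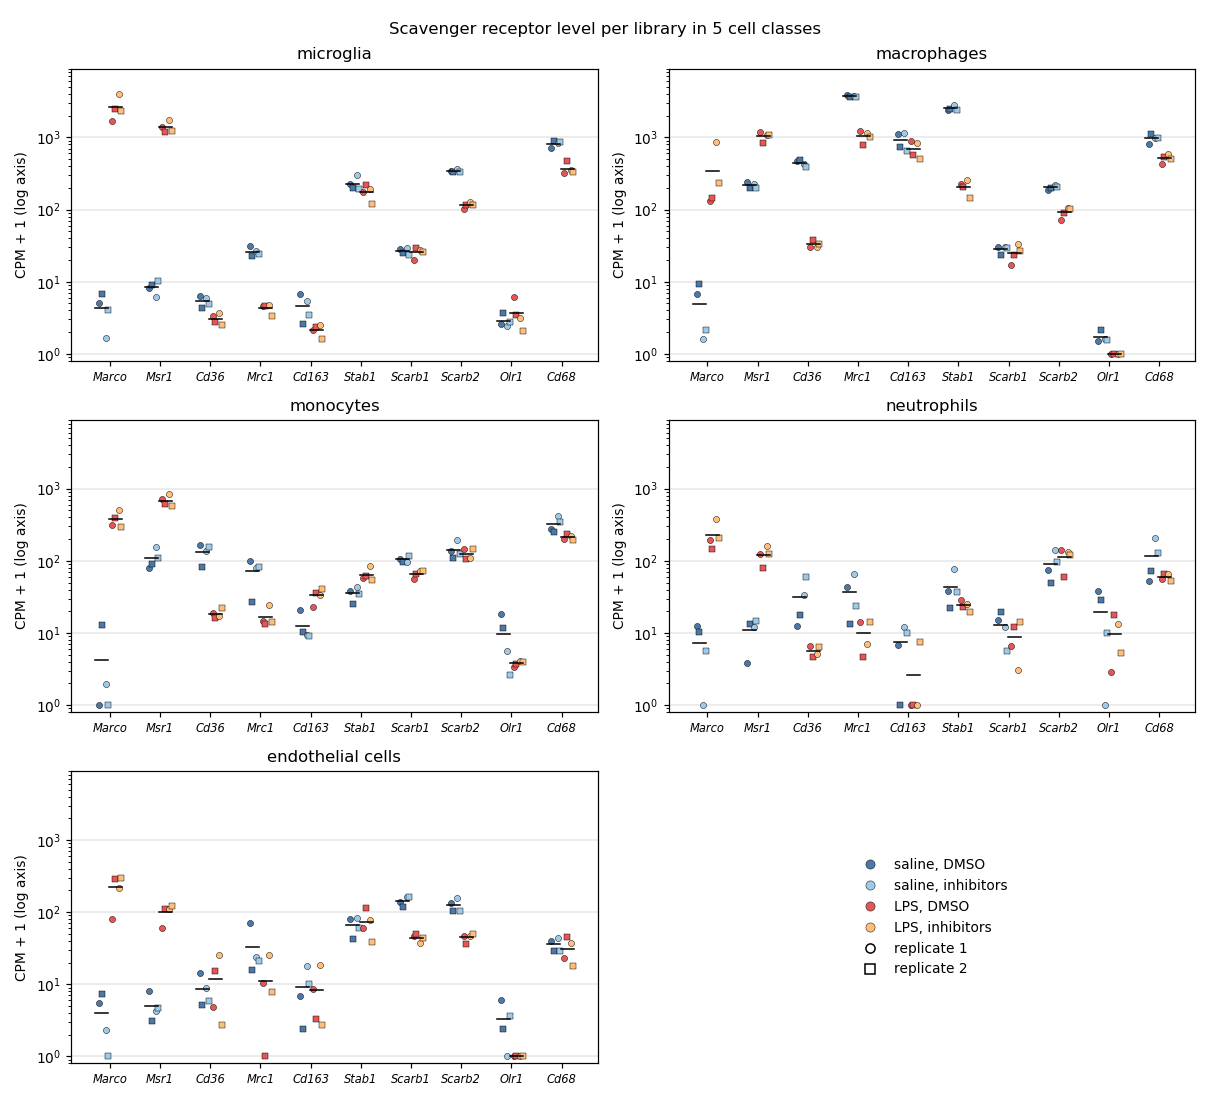
Level of each receptor as CPM + 1 on a log axis, 1 point per library, in 5 cell classes, with bars at the group means. Saline and LPS libraries are drawn side by side, and the Marco points of microglia rise from at most 5.75 CPM to at least 1707 CPM.

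Marco (ENSMUSG00000026390) was almost absent from microglia of saline mice and abundant in them after LPS. In what follows, values of 4 libraries are ordered as DMSO replicates 1 and 2, then inhibitor replicates 1 and 2. Saline microglia held 4.04, 5.75, 0.685 and 3.02 CPM of Marco, and LPS microglia 1707, 2459.8, 3976 and 2312 CPM. Every LPS library was far above every saline library, and the highest LPS value came from the first inhibitor library. The log2 fold change was 10.34 ± 0.64 (adjusted p = 3.38e-08), and its values within batches were 11.19 in batch 1 and 9.80 in batch 2. After each cell was thinned to 1000 UMIs, a Marco UMI was found in 0.279 ± 0.221% of saline microglia and 35.9 ± 5.88% of LPS microglia (SD, n = 4). Cells with fewer UMIs were left out, 340 to 589 microglia per saline library and 48 to 93 per LPS library. Unthinned, the mean shares were 0.782 and 57.1%. Lymphocytes (B, T and NK cells gated the same way), which should lack the gene, held a Marco UMI in 12.1 ± 5.72% of cells from LPS libraries after the same thinning, with a median depth of 2557.5 to 2761 UMIs before it. The microglial share was the higher one in all 4 LPS libraries.

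Marco was also abundant in RNA outside cells. Barcodes with 1 to 99 UMIs, taken as droplets without a cell, held Marco at 12.6 to 83.6 CPM in saline libraries and 1848 to 4044 CPM in LPS libraries. In macrophages of LPS libraries Marco measured 131, 143, 860.0 and 230.5 CPM, and the level to be expected from free RNA alone was 279, 198, 789 and 365 CPM. The measured value was above the expected one in 1 of 4 libraries, the first inhibitor library. That expectation took 8.57 to 19.5% of macrophage UMIs in LPS libraries as free RNA, where lymphocytes had 2.81 to 7.47%. It counted any RNA of the scaling genes held by the gated macrophages themselves as free RNA. At the lymphocyte share the expected level would be 66.1, 64.9, 302 and 97.3 CPM, each below the measured macrophage value. Which share is right was not tested. The log2 fold change in macrophages was 6.91 ± 0.71 (adjusted p = 1.47e-06), with a range over alternatives of 4.77 to 9.41, and once the expected free RNA was subtracted too few counts were left for a test. In neutrophils it measured 195, 146, 373 and 206 CPM where 171, 102, 389 and 186 CPM was expected, so that 3 of 4 libraries were above the expectation and 1 was below it. Their log2 fold change of 4.81 ± 0.41 (adjusted p = 4.98e-06) could likewise not be tested after the subtraction. It was 4.22 in the DMSO and 6.39 in the inhibitor libraries alone, over saline counts of 4, 6, 0 and 1 UMIs.

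In monocytes and endothelial cells Marco stood above that expectation in all 4 LPS libraries. Lymphocytes, which should lack the gene, measured 73.2, 93.8, 166 and 129 CPM against 66.1, 64.9, 302 and 97.3 CPM expected. Levels above and under the expectation thus also occurred in cells that should lack Marco, and the error of the expectation was not tested. Monocytes measured 312, 388, 508 and 295 CPM against 177, 123, 393 and 207 CPM expected, and endothelial cells 79.8, 288, 216 and 299 CPM against 43.8, 74.1, 191 and 140.3 CPM. This was a log2 change of 6.78 ± 0.49 (adjusted p = 3.57e-07) in monocytes and 6.74 after the subtraction (adjusted p = 1.20e-05). Saline monocytes held 0, 9, 1 and 0 Marco UMIs, and the change ranged over alternatives from 5.68 to 9.60, with 9.19 in batch 1 and 5.87 in batch 2, and with 5.68 in DMSO and 9.31 in inhibitor libraries. In endothelial cells it was 6.41 ± 0.55 (adjusted p = 1.22e-07) and 6.26 after the subtraction (adjusted p = 2.31e-05), with a range over alternatives of 5.18 to 8.77. The thinned share in LPS libraries was 13.6 to 25.6% in monocytes and 10.6 to 20.0% in endothelial cells, and 5.36 to 18.0% in lymphocytes. Endothelial cells exceeded lymphocytes of the same library in 2 of 4 libraries. Across classes of LPS libraries microglia stood apart from the next class, monocytes, and the remaining neighbours overlapped.

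**Figure D3:**
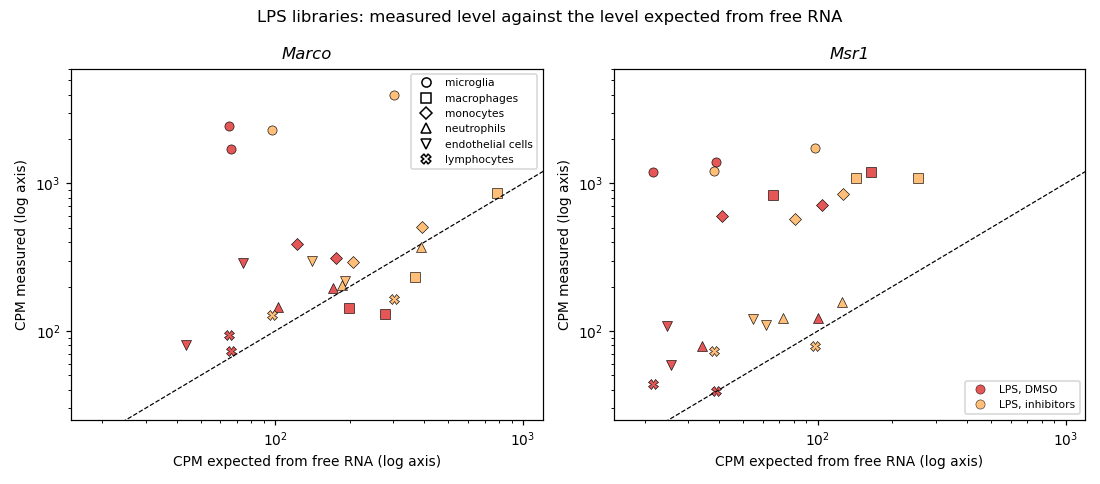
Measured CPM (vertical, log axis) against the CPM expected from free RNA (horizontal, log axis) of Marco (left) and Msr1 (right) in the 4 LPS libraries, by cell class. The dashed line marks equality, and Marco of macrophages lies on or under it in 3 of 4 libraries whereas Marco of microglia lies far above it.

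**Figure D4:**
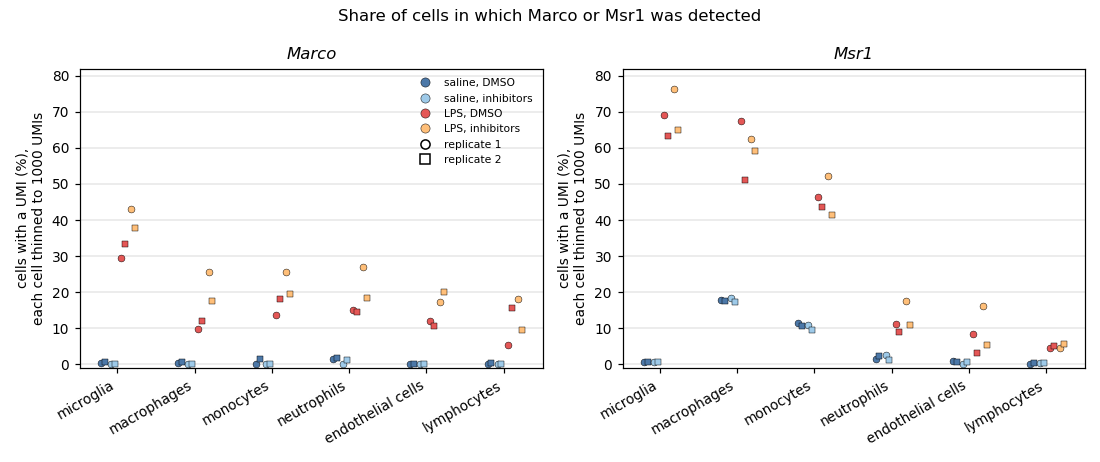
Percent of cells with at least 1 UMI of Marco or Msr1 after thinning each cell to 1000 UMIs, 1 point per library, in 5 classes and in lymphocytes as the class that should lack both. Microglia of LPS libraries reach 29.3 to 43.1% for Marco and 63.3 to 76.4% for Msr1, and lymphocytes 5.36 to 18.0% and 4.46 to 5.70%.

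Msr1 (ENSMUSG00000025044) rose with LPS in all 5 classes. Saline microglia held 7.18, 7.996, 5.14 and 9.14 CPM and LPS microglia 1391, 1190.3, 1746 and 1208 CPM, and the groups did not overlap. On the log2 scale the change was 8.28 ± 0.27 (adjusted p = 2.78e-10), with 8.93 in batch 1 and 7.84 in batch 2. A Msr1 UMI was found in 0.650 ± 0.0944% of thinned saline microglia and 68.4 ± 5.85% of thinned LPS microglia (SD, n = 4), with 4.95 ± 0.589% in lymphocytes of LPS libraries. Unlike Marco, Msr1 was already present in macrophages of saline mice, at 244, 195, 227 and 195 CPM, and it measured 1194, 830.5, 1095 and 1081 CPM in those of LPS mice. The log2 fold change in macrophages was 2.64 ± 0.15 (adjusted p = 2.40e-09), with 2.68 in batch 1 and 2.65 in batch 2. Monocytes went from 77.4, 88.9, 155 and 108 CPM to 717, 604, 845 and 570.1 CPM, a log2 change of 2.74 ± 0.22 (adjusted p = 6.88e-07). Again no LPS library of either class fell within the saline range.

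The order of the classes for Msr1 changed with these rises. With saline it ran macrophages, monocytes, neutrophils, microglia and endothelial cells, and macrophages stood apart from monocytes and monocytes from neutrophils. With LPS it ran microglia, macrophages, monocytes, neutrophils and endothelial cells, where the ranges of microglia (1190.3 to 1746 CPM) and macrophages (830.5 to 1194 CPM) overlapped, as did those of macrophages and monocytes, and monocytes stood apart from neutrophils. In neutrophils Msr1 went from 9.95 ± 4.85 to 121 ± 32.1 CPM (SD, n = 4), a log2 change of 3.65 ± 0.36 (adjusted p = 1.11e-05) that was 2.62 after free RNA was subtracted (adjusted p = 0.0137). In endothelial cells it went from 4.05 ± 2.14 to 99.1 ± 27.4 CPM, a log2 change of 4.74 ± 0.33 (adjusted p = 1.12e-08). The endothelial share of cells with a Msr1 UMI exceeded that of lymphocytes in 2 of 4 LPS libraries. Lymphocytes themselves went from 0, 2.23, 1.95 and 4.95 CPM to 39.0, 44.0, 79.7 and 73.6 CPM. In LPS neutrophils free RNA was expected to give 100, 34.0, 125 and 72.7 CPM, where 123, 79.4, 158 and 122 CPM were measured. In LPS endothelial cells it was 25.7, 24.7, 61.7 and 54.8 CPM, against 58.9, 108, 109 and 121 CPM measured. After its subtraction the endothelial change was 4.57.

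Cd36 (ENSMUSG00000002944), the class B receptor for long-chain fatty acids and oxidised lipoproteins, fell in macrophages and monocytes. Saline macrophages held 473, 485, 430.2 and 389 CPM and LPS macrophages 29.2, 37.3, 29.4 and 32.3 CPM, so that the groups were far apart and each was tight. The log2 fold change was −3.44 ± 0.16 (adjusted p = 6.88e-10), a level 10.8-fold lower, with −3.54 in batch 1 and −3.29 in batch 2. Monocytes held 163, 80.8, 136 and 152 CPM with saline and 17.8, 15.1, 16.0 and 20.9 CPM with LPS, a log2 change of −2.79 ± 0.21 (adjusted p = 5.79e-07), with −2.96 in batch 1 and −2.51 in batch 2. The lowest saline monocyte library was still above every LPS one. Dendritic cell markers were lower with LPS in both classes too, as given above, and their part in the Cd36 values was not tested. Microglia held little Cd36, 3.39 to 5.29 CPM with saline and 1.48 to 2.72 CPM with LPS. Their log2 fold change of −0.36 ± 0.18 (adjusted p = 0.0923) was not called, but with the batch as a replicate block the same value of −0.36 was (adjusted p = 0.0313), with the gate extended to neighbours it was −0.46 (adjusted p = 0.0368), and scaled by library totals −1.10 (adjusted p = 0.000608). It was −0.059 after free RNA was subtracted (adjusted p = 0.8004), −0.16 with the stricter gate and −0.11 in batch 1 alone, none of which was called.

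Scarb1 (ENSMUSG00000037936), the high-density lipoprotein receptor, was highest in endothelial cells of saline mice and fell there. Endothelial cells held 136, 117, 162 and 159 CPM with saline and 45.6, 49.2, 36.4 and 42.5 CPM with LPS. The ranges did not meet, and the log2 fold change was −1.53 ± 0.18 (adjusted p = 4.83e-06), with −1.62 in batch 1 and −1.38 in batch 2. The endothelial marker list was also lower with LPS, as given above, and its part in these values was not tested. In saline libraries endothelial cells stood apart from monocytes, the next class, while in LPS libraries monocytes ranked first and again the pair did not overlap. Monocytes held 106, 97.0, 96.9 and 114 CPM with saline and 54.4, 64.3, 72.5 and 71.2 CPM with LPS, all LPS values being below all saline values. Their log2 fold change of −0.55 ± 0.16 (adjusted p = 0.0159) was smaller and lost its call in several alternatives, among them each batch alone at −0.53 in batch 1 and −0.47 in batch 2, and the fit without saline inhibitors replicate 2 at −0.40. In microglia Scarb1 measured 27.5, 23.9, 28.1 and 22.4 CPM with saline and 18.8, 28.2, 26.2 and 25.1 CPM with LPS, so the CPM ranges overlapped. The fitted change there was 0.70 ± 0.12 (adjusted p = 0.000315) with TMM scaling and −0.056 when scaled by library totals (adjusted p = 0.703), so its direction depended on the scaling. In macrophages the value was 0.15 ± 0.22 (adjusted p = 0.610).

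Scarb2 (ENSMUSG00000029426), the lysosomal class B member, was highest in microglia of saline mice and fell in 3 classes. Microglia held 342, 335, 361 and 328 CPM with saline and 102, 114, 128 and 116 CPM with LPS, without overlap. In the fit the log2 change was −0.82 ± 0.11 (adjusted p = 3.06e-05), with −0.68 in batch 1 and −0.81 in batch 2, and it was −1.57 scaled by library totals. Macrophages went from 203 ± 14.3 to 91.1 ± 15.6 CPM (SD, n = 4), a log2 change of −0.80 ± 0.15 (adjusted p = 0.000385). Endothelial cells went from 124 ± 25.4 to 43.8 ± 6.04 CPM, a log2 change of −1.28 ± 0.18 (adjusted p = 2.90e-05), beside lower endothelial, microglial and monocyte markers in that gate. Values in monocytes (−0.075 ± 0.19, adjusted p = 0.793) and neutrophils (0.61 ± 0.30, adjusted p = 0.155) were not called. Thus microglia, first among the classes and apart from macrophages with saline, overlapped with neutrophils and monocytes in LPS libraries.

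Mrc1 (ENSMUSG00000026712) and Stab1 (ENSMUSG00000042286), endocytic receptors with which macrophages clear glycoproteins and modified ligands, both fell in macrophages. Macrophages held 3923, 3610.5, 3807 and 3629 CPM of Mrc1 with saline and 1208, 786, 1159.7 and 997 CPM with LPS. The log2 fold change was −1.50 ± 0.14 (adjusted p = 5.44e-07), a level 2.83-fold lower, with −1.31 in batch 1 and −1.67 in batch 2. Stab1 went from 2394, 2478, 2858 and 2436 CPM to 225, 203, 256 and 143 CPM, a log2 change of −3.27 ± 0.17 (adjusted p = 1.39e-09) or 9.64-fold, with −3.05 in batch 1 and −3.47 in batch 2. No LPS library came near the saline range for either gene. Macrophages ranked first for Mrc1 with both treatments and stood apart from monocytes each time. For Stab1 they ranked first with saline, but with LPS their range of 143 to 256 CPM overlapped that of microglia, 117 to 218 CPM. The fall of the macrophage marker list reported above moved with these changes, and its part in them was not tested. Within cells selected by the stricter marker gate the changes were −1.44 for Mrc1 and −3.29 for Stab1. That gate kept 294 to 601 of the 393 to 790 macrophages per saline library, but 38 to 75 of the 220 to 294 per LPS library.

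Outside macrophages measured Mrc1 fell in microglia and monocytes, and Stab1 rose in monocytes. Microglia held 29.99, 21.7, 25.8 and 23.4 CPM of Mrc1 with saline and 3.64, 3.63, 3.72 and 2.31 CPM with LPS, and the log2 fold change was −2.19 ± 0.13 (adjusted p = 1.91e-08), with −1.99 in batch 1 and −2.24 in batch 2. Free RNA would be expected to give 3.65 to 10.6 CPM of Mrc1 in saline microglia, and after its subtraction the change was −2.39. Lymphocytes held 36.1, 11.7, 15.6 and 18.7 CPM of Mrc1 with saline and 7.32, 2.93, 15.9 and 9.20 CPM with LPS. The microglial share of cells with a Mrc1 UMI exceeded that of lymphocytes in 3 of 4 saline and 1 of 4 LPS libraries. How much of the microglial change lay within the cells was not tested. Monocytes went from 71.0 ± 31.3 to 15.7 ± 5.31 CPM (SD, n = 4), a log2 change of −2.06 ± 0.31 (adjusted p = 0.000188). In endothelial cells the Mrc1 value of −1.38 ± 0.58 (adjusted p = 0.0673) was not called, while with the batch as a replicate block it was −1.53 and called (adjusted p = 0.0154). Saline DMSO 1 held 109 Mrc1 UMIs and the other saline libraries 21, 35 and 37. The change was −2.52 in the DMSO libraries alone (adjusted p = 0.0466) and −0.25 in the inhibitor libraries alone (adjusted p = 0.758). It was also called with no count filter (−1.48), with the gate extended to neighbours (−1.63), under library totals (−1.59), and without saline DMSO 2 (−1.62), saline inhibitors 1 (−1.56), saline inhibitors 2 (−1.55) or LPS inhibitors 1 (−2.01). Stab1 of monocytes went from 37.3, 24.2, 42.4 and 33.7 CPM to 56.6, 60.5, 83.6 and 53.8 CPM, a log2 change of 0.97 ± 0.21 (adjusted p = 0.00219) that was 2.34 after free RNA was subtracted. Free RNA was expected to give 34.5, 17.2, 34.0 and 21.3 CPM of the saline values and 27.0, 19.2, 30.8 and 15.6 CPM of the LPS values. The value of 2.34 thus rests on a small saline remainder. As measured, all 4 LPS libraries lay above the saline range. In microglia Stab1 measured 224, 197, 301 and 193 CPM with saline and 177, 218, 192 and 117 CPM with LPS, ranges that overlapped. Its value there was not called on either scaling, 0.36 ± 0.16 (adjusted p = 0.0642) with TMM and −0.38 with library totals (adjusted p = 0.0722), and the sign differed between them. It was called in 7 of 23 alternatives, all of them higher with LPS: the DESeq2 test (0.47, adjusted p = 0.00841), DESeq2 size factors (0.47), no count filter (0.41), the stricter gate (0.39), the DMSO libraries alone (0.68, beside 0.094 in inhibitor libraries alone), and without saline inhibitors 1 (0.52) or LPS inhibitors 2 (0.49).

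Cd163 (ENSMUSG00000008845), which takes up haemoglobin bound to haptoglobin, was not called in macrophages and rose in monocytes. Macrophages held 1111, 745, 1163 and 655 CPM with saline and 897, 562, 836 and 507 CPM with LPS. The first library of each pair was higher than the second in all 4 combinations, and the saline and LPS ranges overlapped over all 8 libraries, while within each batch both LPS values lay below both saline values. As a log2 change with TMM factors this was −0.032 ± 0.20 (adjusted p = 0.908), with a 95% interval of −0.42 to 0.35, and 0.0074 in batch 1 and −0.032 in batch 2. Scaled by library totals it was −0.41 and not called (adjusted p = 0.117). In monocytes Cd163 measured 20.1, 9.43, 8.47 and 8.02 CPM with saline and 21.6, 34.4, 32.6 and 39.9 CPM with LPS. The saline values rest on 7, 7, 9 and 5 UMIs. Every LPS library was above every saline library, and the log2 fold change was 1.74 ± 0.33 (adjusted p = 0.000984), with 1.32 in batch 1 and 2.24 in batch 2. The change was not called in batch 1 alone or in the DMSO libraries alone (1.30, adjusted p = 0.119), and in the inhibitor libraries alone it was 2.19 (adjusted p = 0.00105). Microglia held at most 5.72 CPM, and the change of −0.89 ± 0.32 (adjusted p = 0.0287) there was lost in batch 2 alone at −0.39, in the DMSO libraries alone at −0.75 and on leaving out any of 4 libraries. It was then −0.58 without saline DMSO 1, −0.74 without saline inhibitors 1, −0.88 without LPS DMSO 1 and −0.68 without LPS inhibitors 2. Other alternatives gave larger values, −1.41 after free RNA was subtracted and −1.05 with the stricter gate. Saline microglia held 5.72, 1.63, 4.41 and 2.42 CPM of Cd163, of which free RNA was expected to give 3.33, 0.756, 2.03 and 1.37 CPM. The microglial share of cells with a Cd163 UMI exceeded that of lymphocytes in 1 of 4 saline and 3 of 4 LPS libraries.

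Cd68 (ENSMUSG00000018774), a lysosomal protein often used as a sign of phagocytic cells, fell in macrophages and in microglia. Macrophages went from 819, 1119, 976 and 978 CPM to 431, 535, 589.6 and 501 CPM, without overlap, and the log2 fold change was −0.57 ± 0.15 (adjusted p = 0.00608), with −0.42 in batch 1 and −0.66 in batch 2. The call held in 20 of 23 alternatives and was lost in batch 1 alone (adjusted p = 0.102), in the DMSO libraries alone (−0.61, adjusted p = 0.111) and in the inhibitor libraries alone (−0.51, adjusted p = 0.0769). Microglia held 718, 883, 834 and 854 CPM with saline and 319, 465, 355 and 327 CPM with LPS, and again all LPS values were below all saline values. With TMM factors the microglial change was −0.43 ± 0.16 (adjusted p = 0.0322), and it kept its call in only 9 of 23 alternatives. It was not called on leaving out saline DMSO 2 (−0.31), saline inhibitors 1 (−0.43), saline inhibitors 2 (−0.30), LPS DMSO 1 (−0.35), LPS inhibitors 1 (−0.37) or LPS inhibitors 2 (−0.41), while scaled by library totals it was −1.17 (adjusted p = 3.50e-06). In monocytes the value was −0.49 ± 0.18 (adjusted p = 0.0520), with an adjusted p of 0.0372 with the batch as a replicate block. Without saline DMSO 2 it was called at −0.53 and without LPS DMSO 2 at −0.57, and it was −0.025 in the DMSO libraries alone and −0.82 in the inhibitor libraries alone (adjusted p = 0.0108). In neutrophils it was −0.60 ± 0.32 (adjusted p = 0.200), with 0.13 in the DMSO libraries alone and −1.35 in the inhibitor libraries alone (adjusted p = 0.0144). Macrophages and microglia overlapped with saline and with LPS, and microglia stood apart from monocytes with both.

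Olr1 (ENSMUSG00000030162), the receptor for oxidised low-density lipoprotein, had few UMIs in every class. Saline microglia held 1.60, 2.65, 1.42 and 1.77 CPM and LPS microglia 5.09, 2.46, 2.16 and 1.05 CPM, and the ranges overlapped. The log2 fold change was 1.27 ± 0.39 (adjusted p = 0.0132), but it was 0.55 scaled by library totals (adjusted p = 0.210), 0.33 in batch 2 alone and 0.77 without LPS DMSO replicate 1, none of which was called. In no other class did the gene have enough counts for the test of LPS over all 8 libraries. Macrophages held 4 UMIs in all saline libraries and 0 in all LPS libraries, neutrophils 33 and 20, monocytes 20 and 42, and endothelial cells 15 and 0. These raw counts come from sums of unequal depth. Monocytes held 17.2, 10.8, 4.71 and 1.60 CPM with saline and 2.40, 2.75, 3.12 and 2.93 CPM with LPS. Neutrophils held 37.2, 27.7, 0 and 9.12 CPM with saline and 1.86, 16.6, 12.3 and 4.33 CPM with LPS. A count of 0 sets only an upper limit, and no fold is given.

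The scale of measurement matters in microglia, where the TMM factors were 1.19 to 1.40 in saline libraries and 0.696 to 0.834 in LPS libraries. With TMM factors the median log2 fold change of all 20221 genes tested was −0.19, and when scaled by library totals it was −0.94. The calls over all genes were 6084 higher and 7166 lower with the first and 2888 higher and 13600 lower with the second. Marco, Msr1, Scarb1, Olr1 and Stab1 lay above the median on both scalings, and Mrc1, Cd163, Scarb2, Cd68 and Cd36 below it. The same shift was smaller in macrophages (−0.035 and −0.41, calls of 2133 higher and 2154 lower against 1222 and 3599) and in monocytes (−0.062 and −0.17). In neutrophils it was −0.016 and −0.17 (670 higher and 620 lower against 457 and 738), and in endothelial cells −0.011 and −0.21 (2015 higher and 2074 lower against 1403 and 2678). Of the members, Scarb1 and Stab1 in microglia changed sign between the scalings, as given above, and so did Scarb1 in macrophages (0.15 and −0.23, called on neither).

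**Figure D5:**
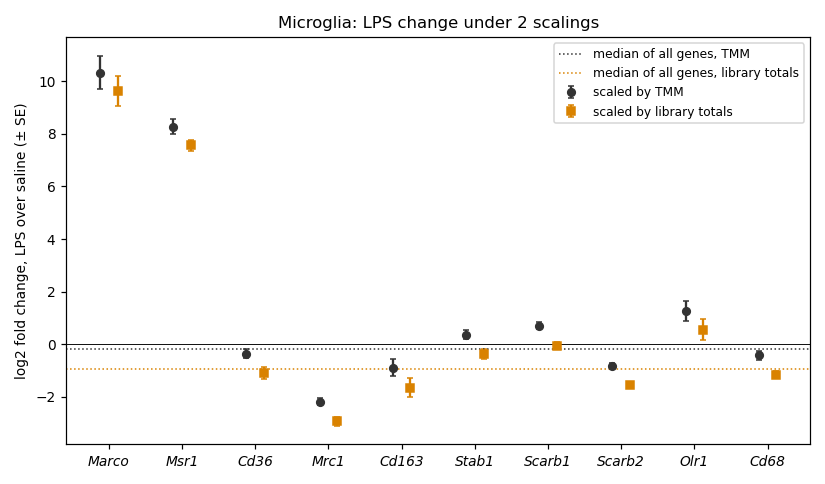
Log2 fold change of LPS against saline in microglia for the 10 receptors under TMM scaling and under library totals, with bars of 1 SE. Dotted horizontal lines mark the median of all genes under each scaling, −0.19 and −0.94. Scarb1 lies at 0.70 under the first and −0.056 under the second.

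Whether the LPS change differed between classes was tested in a fit over microglia and 1 other class, with the mouse as a block. Between macrophages and microglia 6 of 10 members were called (background 25.9%). Relative to microglia the macrophage change was lower for Msr1 (−5.71 ± 0.14), Stab1 (−3.65 ± 0.13), Cd36 (−3.09 ± 0.19) and Marco (−3.74 ± 0.61), as log2 differences ± SE, and higher for Cd163 (0.85 ± 0.17) and Mrc1 (0.68 ± 0.13). Thus measured Mrc1 fell in both classes and by less in macrophages, whereas Msr1 rose in both and by more in microglia. The microglial Mrc1 levels overlapped those of lymphocytes with both treatments. The Cd163 difference set a change not called in macrophages against microglia that held at most 5.72 CPM. For monocytes 8 members were called (background 23.4%), including Cd163 at 2.90 ± 0.39, Scarb2 at 1.12 ± 0.20 and Stab1 at 1.01 ± 0.21 on the higher side, and Msr1 at −5.22 ± 0.26 on the lower side. The Marco difference in monocytes, −3.23 ± 0.70, was −1.04 and not called without saline DMSO replicate 2, the library that held 12.1 CPM where the other 3 saline libraries held at most 0.941 CPM. With free RNA subtracted the Marco difference was −4.62 in monocytes (not called, adjusted p = 0.0526) and −5.32 in endothelial cells (adjusted p = 0.0101). In macrophages and neutrophils the subtraction left too few Marco counts for a test of LPS, so no difference after it is read there. The same subtraction moved Msr1 to −6.30 in macrophages, −5.81 in monocytes, −5.52 in neutrophils and −4.09 in endothelial cells, Cd163 to 1.496 in macrophages and 3.89 in monocytes, and Stab1 to 2.42 in monocytes, all still called.

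For neutrophils 4 members were called (background 17.8%), with Scarb2 higher at 1.72 ± 0.30. For endothelial cells 5 were called (background 34%), with Scarb1 lower at −1.86 ± 0.19, a gene whose level fell in endothelial cells. On simulated counts 20.2% of the calls of this endothelial fit were false. The counts for monocytes, neutrophils and endothelial cells each include Olr1, which had too few UMIs for a test of LPS in those classes and entered these fits through microglia, so no difference is read from it. Scaling by library totals kept the sign of the 22 called values other than endothelial Olr1 but moved the calls over all genes: from 906 higher and 3725 lower to 2079 and 1844 for macrophages, from 2341 and 2014 to 4102 and 1326 for monocytes, from 1207 and 1918 to 2059 and 1207 for neutrophils, and from 3353 and 2785 to 4428 and 2135 for endothelial cells.

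The ex vivo treatment separated the libraries by their dissociation genes in each of the classes other than endothelial cells, while no receptor was called. The summed level of 11 immediate-early and stress genes (Fos, Jun, Egr1, Hspa1a and others) was 2947.52 to 6324.41 CPM in DMSO microglia and 219.432 to 617.078 CPM in inhibitor microglia, and 6433.49 to 14225.4 and 560.502 to 1462.2 CPM in macrophages. Monocytes held 4052.59 to 12822.1 and 1278.56 to 1879.47 CPM, neutrophils 4950.72 to 21784.9 and 2417.23 to 4456.71 CPM, and endothelial cells 1171.35 to 3018.61 and 772.644 to 1196.74 CPM, ranges that overlapped. No member was called between DMSO and inhibitor libraries in any class, where 0.355% of genes tested were called in microglia, 0.585% in macrophages, 0.0565% in monocytes, 0.108% in neutrophils and 0.0879% in endothelial cells. At an unadjusted p under 0.05 there were 1, 1, 0, 0 and 1 members in that order: Olr1 in microglia (0.86 ± 0.31), Marco in macrophages (−1.34 ± 0.51) and Cd163 in endothelial cells (−1.34 ± 0.55), all log2 DMSO against inhibitors ± SE. Over all genes there were 870 of 22274, 422 of 9566, 435 of 12384, 504 of 7399 and 276 of 11371 at that threshold. DESeq2 also called none in any class, while with no count filter Marco in macrophages was called (−1.39, adjusted p = 6.94e-07). Marco expected from free RNA in macrophages of LPS libraries was 279 and 198 CPM with DMSO and 789 and 365 CPM with inhibitors. The part of free RNA in the macrophage values was not tested. For Mrc1 in macrophages the 95% interval of the DMSO change was −0.32 to 0.27, and for Msr1 in microglia −0.51 to 0.32.

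Nor was the LPS change of any member called as different between DMSO and inhibitor libraries, where 0.0224% of genes in microglia and 0.0418% in macrophages were called and 0 in the other 3 classes. On simulated counts this test recovered 0 to 7% of log2 changes of 1 and 10 to 56% of changes of 2. An uncalled difference is therefore not read as an absent one. At an unadjusted p under 0.05 there were 1, 1, 3, 1 and 1 members in the same order, and over all genes 402 of 22274, 299 of 9566, 667 of 12384, 562 of 7399 and 336 of 11371. Marco was among these members in 4 of the classes, with a smaller LPS change in DMSO libraries: the difference was −2.04 ± 0.75 (adjusted p = 1.000) in microglia, −4.63 ± 1.11 (adjusted p = 0.701) in macrophages, −3.66 ± 1.42 (adjusted p = 0.906) in monocytes and −3.58 ± 1.38 (adjusted p = 1.000) in endothelial cells. The other members were Olr1 in monocytes (−2.02 ± 0.94, adjusted p = 0.916) and Cd68, with a higher value in DMSO libraries, at 0.77 ± 0.33 (adjusted p = 0.910) in monocytes and 1.35 ± 0.50 (adjusted p = 0.541) in neutrophils. The LPS change of Marco within DMSO libraries alone was 9.50 in microglia and within inhibitor libraries alone 11.54. The saline levels behind these values were near 0, at 4.04, 5.75, 0.685 and 3.02 CPM in microglia. Marco expected from free RNA in LPS libraries also differed by ex vivo treatment. With DMSO and with inhibitors it was 279 and 198 against 789 and 365 CPM in macrophages, and 177 and 123 against 393 and 207 CPM in monocytes. In endothelial cells it was 43.8 and 74.1 against 191 and 140.3 CPM, and in microglia 66.1 and 64.9 against 302 and 97.3 CPM. The part of free RNA in these differences was not tested. DESeq2 called the Marco difference in macrophages, at −4.83, and no other member. Leaving out saline inhibitors replicate 2 called it in microglia, at −3.52, and leaving out LPS inhibitors replicate 2 called it in macrophages, at −5.26, in fits where 1 combination held a single library that is assumed to vary like the others.

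The receptors with a UMI in a cell were counted after thinning to 1000 UMIs, with free RNA included. Of lymphocytes from LPS libraries 12.1% held a Marco UMI and 4.95% a Msr1 UMI on the same scale, and the part of free RNA in the values that follow was not tested. A saline microglial cell held UMIs of 1.07 ± 0.0520 of the 10 receptors on average and an LPS microglial cell 1.65 ± 0.134 (SD, n = 4). Cells with at least 2 receptors were 27.9 ± 2.52% and 54.3 ± 5.66%. Only Marco and Msr1 had microglial shares with LPS wholly above those with saline, so these rises came through them. Cd68, Scarb2 and Mrc1 had shares wholly below. A Cd68 UMI was in 47.8 to 54.7% of saline and 26.9 to 36.1% of LPS microglia, and a Scarb2 UMI in 26.9 to 29.1% and 9.89 to 12.5%. The shares of the remaining receptors overlapped. In macrophages the mean over the 10 receptors fell from 3.39 ± 0.107 to 2.36 ± 0.252, and cells with at least 2 from 91.3 ± 1.30% to 72.1 ± 5.23%. Within LPS microglia Marco and Msr1 were found at like shares together and apart: a Msr1 UMI was in 65.4 to 77.6% of cells with a Marco UMI and 62.3 to 75.5% of cells without one. Within saline macrophages a Stab1 UMI was in 79.9 to 85.1% of cells with a Mrc1 UMI and 45.5 to 52.8% of cells without one, and a Cd163 UMI in 41.0 to 55.4% of cells with a Mrc1 UMI and 21.6 to 28.3% of cells without one. With LPS the Stab1 shares were 12.5 to 26.2% of cells with a Mrc1 UMI and 5.60 to 21.0% of cells without one, ranges that overlapped, while those of Cd163 were 36.2 to 56.7% and 20.0 to 28.9%, ranges that did not. These shares are descriptions of cells within libraries, and no test was made of them.

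Genes of related function were read from 3 lists, and the part of free RNA in them was not tested. The genes named from them kept their sign under library totals. Counts are of genes called for LPS, beside 65.5% of all genes tested in microglia, 50.1% in macrophages, 35.2% in monocytes, 22.4% in neutrophils and 39.6% in endothelial cells. Of 9 genes for haemoglobin and haem handling 9, 8, 8, 6 and 8 were tested in these classes, and 7 were higher and 1 lower in LPS microglia, with a median log2 fold change of 1.16 beside −0.19 for all genes, and 3 higher and 4 lower in macrophages. Hp, which encodes haptoglobin, the plasma protein that delivers haemoglobin to Cd163, went in macrophages from 3.10 ± 0.620 to 978 ± 189 CPM (log2 fold change 8.62 ± 0.22). In the same cells Slc40a1, the iron exporter ferroportin, went from 209 ± 28.1 to 3.44 ± 2.74 CPM (−5.60 ± 0.29), and the ferritin heavy chain Fth1 from 5224 ± 446 to 21273 ± 2719 CPM (2.39 ± 0.16). Haem oxygenase Hmox1 rose in microglia (2.49 ± 0.14), monocytes (2.78 ± 0.22), neutrophils (2.81 ± 0.37) and endothelial cells (2.74 ± 0.33). Slc40a1 was also lower in microglia (−4.34 ± 0.10), monocytes (−3.57 ± 0.48) and endothelial cells (−3.81 ± 0.22). In monocytes 6 of this list were higher and 1 lower, in neutrophils 4 higher and 0 lower, and in endothelial cells 3 higher and 2 lower.

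Of 14 lipid handling genes 14, 11, 13, 7 and 12 were tested in the same classes, and 3 were higher and 6 lower in microglia, 2 and 5 in macrophages, 3 and 7 in monocytes, 3 and 1 in neutrophils, and 3 and 4 in endothelial cells. Plin2, the coat protein of lipid droplets, went from 113 ± 16.4 to 473 ± 51.4 CPM in macrophages (2.43 ± 0.16) and rose also in microglia (3.94 ± 0.17), monocytes (2.36 ± 0.19) and neutrophils (2.97 ± 0.26). The cholesterol exporter Abca1 went in macrophages from 455 ± 11.03 to 79.1 ± 33.9 CPM (−2.16 ± 0.21), beside the fall of Cd36 in the same cells. Apoe, the lipoprotein ligand, fell in microglia (−0.98 ± 0.21), monocytes (−3.08 ± 0.33), neutrophils (−2.89 ± 0.32) and endothelial cells (−2.17 ± 0.24). Of 13 further scavenger receptors measured 12, 4, 5, 3 and 6 were tested, and 4 were higher and 5 lower in microglia, 1 and 2 in macrophages, 0 and 1 in monocytes, 1 and 1 in neutrophils, and 2 and 0 in endothelial cells. Cd44, the hyaluronan receptor, went in microglia from 5.14 ± 0.588 to 79.3 ± 13.9 CPM (4.70 ± 0.16), and the low-density lipoprotein receptor relative Lrp1 from 597 ± 41.9 to 105 ± 22.1 CPM (−1.77 ± 0.14). Cxcl16, which is both a chemokine and a receptor for oxidised lipoprotein, rose in microglia (2.91 ± 0.15) and endothelial cells (3.77 ± 0.23).

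For each member the 3 genes with the closest pattern were sought by Pearson correlation of log2(CPM + 1) over the 40 sums of 5 classes by 8 libraries, among 12231 genes. The points share libraries, depth and class, so the correlations describe a likeness and carry no p. Marco was most like Zfp811 (0.901), Sod2 (0.901) and Acod1 (0.895), and Msr1 most like Ms4a6c (0.923), Clec4a1 (0.922) and Aoah (0.899). Mrc1 was most like Ms4a7 (0.933), Cbr2 (0.922) and Ccl8 (0.918) and Cd163 like Pf4 (0.947), Cbr2 (0.916) and Ccl8 (0.909), where Ms4a7, Cbr2 and Pf4 belong to the macrophage gate. Stab1 was most like Galc (0.915), Fxyd2 (0.895) and Mfsd11 (0.864), and Cd36 like Hgsnat (0.876), H2-Ab1 (0.873) and H2-Aa (0.867), of which H2-Ab1 and H2-Aa are class II antigen-presentation genes. Cd68 was most like Ctsa (0.959), Ctsb (0.955) and P2ry6 (0.951), of which Ctsa and Ctsb are lysosomal proteases. The closest gene was Prdx2 (0.879) for Scarb1, Rnaset2a (0.865) for Scarb2 and Ms4a3 (0.815) for Olr1.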

How the data were processed

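Deposited per library were UMI counts per gene and barcode, which the authors made with PIPseeker v2.0 (barcode matching, STAR alignment to GRCm39 with GENCODE genes, molecule counting) without selecting cells; the submitters' processing notes also name Seurat 4. Barcodes with at least 800 and under 45000 UMIs, at least 250 and under 6500 genes and under 5% mitochondrial UMIs were kept. A cell entered macrophages, monocytes, neutrophils or endothelial cells with at least 3 of 12 markers of the class, at least 2 more than of any other non-microglial list, and a microglial marker level under 25% of the library's median, and microglia with at least 4 of 12 markers, at least 25% of that level and at most 2 of any other list. The gate was set after marker distributions were seen and uses no member, and differences from published shares may come from these rebuilt classes. The Scrublet doublet score marked at most 0.477% of cells with its own threshold and was used only in an alternative that removed the top 7.08 to 7.94%.

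UMIs were summed per class and library (at least 10 cells, at least 3 libraries a side) and tested in edgeR 4.0.16 (R 4.3.3) with its quasi-likelihood test, its default count filter, TMM factors and Benjamini-Hochberg adjustment over all genes of the class. CPM are counts per 1000000 UMIs of the class sum. All intervals cover counting and replicate error of these 8 mice only, and shares of cells rest on barcodes of 1 library each. Free RNA was estimated from barcodes with 1 to 99 UMIs, scaled in each class by P2ry12, Tmem119, Siglech and Sall1 (at most 0.5 of a class). Microglia took the lymphocyte share, so their free RNA is assumed. In the other classes any RNA of these genes held by the cells themselves was counted as free RNA. Scripts were tested on simulated counts with known log2 changes of 1 and 2. In these a small set of genes changed, as many up as down, and all others did not. In the real data 65.5% of genes tested were called for LPS in microglia. Recovery and false calls with that many changes were not tested. The LPS test recovered 25 to 72% and 78 to 94% of these, and the DMSO test 23 to 63% and 79 to 95%. The difference between ex vivo treatments recovered 0 to 7% and 10 to 56%, and the difference from microglia 4 to 40% and 42 to 61%. False calls in that order were 4.29 to 7.82%, 4.67 to 14.0%, 11.1 to 23.1% and 4.17 to 20.2%. Named genes were the 10 members, for each of 3 lists up to 4 called genes with the largest change per class, and the 3 closest genes per member. The members and lists were chosen with earlier results of these data known.

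The replicate number is the batch of the labels, so it pairs libraries. Deviations from group means of same-numbered libraries correlated at 0.0728 to 0.488 in microglia, -0.00801 to 0.325 in macrophages, 0.171 to 0.261 in monocytes, 0.0645 to 0.311 in neutrophils and 0.125 to 0.349 in endothelial cells (6 pairs each). Alternatives were DESeq2 1.42.0 (test and size factors), no count filter, an ex vivo covariate, the replicate block, each ex vivo treatment or batch alone, a stricter gate, free RNA subtracted, at least 1500 UMIs per cell, doublets removed, and each library left out, and, chosen after seeing the data, a gate extended to neighbours (at least 8 of 15) and scaling by library totals. GRCm39 sequence and protein sequences were not used here.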

Additional observations from a re-analysis of the deposited data

Results flagged for a closer look

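In 7 of 80 sets of 4 libraries (a member in a class under saline or LPS) 1 library lay far from the other 3, where chance gives about 5% of such sets. In microglia Mrc1 was 2.31 CPM in LPS inhibitors replicate 2 and 3.63 to 3.72 CPM in the other LPS libraries. In macrophages Marco was 859.95 CPM in LPS inhibitors replicate 1 and 131 to 230.5 CPM in the others, and Scarb1 was 22.2 CPM in saline DMSO replicate 2 and 28.2 to 28.9 CPM in the others. In monocytes Marco was 12.1 CPM in saline DMSO replicate 2 and 0 to 0.941 CPM in the others, Mrc1 was 23.6 CPM in LPS inhibitors replicate 1 and 12.4 to 13.6 CPM in the others, and Cd163 was 20.1 CPM in saline DMSO replicate 1 and 8.02 to 9.43 CPM in the others. In endothelial cells Mrc1 was 70.2 CPM in saline DMSO replicate 1 and 14.9 to 22.7 CPM in the others.

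The LPS change differed from that of microglia, by edgeR's quasi-likelihood test of the difference itself, for 22 combinations of member and class besides endothelial Olr1, given here as log2 differences ± SE. Endothelial Olr1 was called too, at −9.40 ± 2.81 (adjusted p = 0.0104), and is left out of the 22. Among the 22 are 2 of Olr1, in monocytes and neutrophils. In all 3 classes Olr1 had too few UMIs for a test of LPS and entered these fits through microglia, so no difference is read from it. In macrophages these were Marco at −3.74 ± 0.61 (adjusted p = 3.43e-07), Msr1 at −5.71 ± 0.14 (adjusted p = 1.15e-56), Cd36 at −3.09 ± 0.19 (adjusted p = 1.53e-26) and Stab1 at −3.65 ± 0.13 (adjusted p = 8.18e-46) on the lower side. On the higher side were Mrc1 at 0.68 ± 0.13 (adjusted p = 1.35e-05) and Cd163 at 0.85 ± 0.17 (adjusted p = 2.93e-05). In monocytes Msr1 at −5.22 ± 0.26 (adjusted p = 4.14e-17), Cd36 at −2.06 ± 0.25 (adjusted p = 4.89e-08) and Scarb1 at −0.88 ± 0.17 (adjusted p = 0.000208) were lower, and Cd163 at 2.90 ± 0.39 (adjusted p = 5.86e-07), Stab1 at 1.01 ± 0.21 (adjusted p = 0.000464) and Scarb2 at 1.12 ± 0.20 (adjusted p = 5.07e-05) higher. The Marco difference in monocytes of −3.23 ± 0.70 (adjusted p = 0.000586) was lost without saline DMSO replicate 2 (−1.04) and after free RNA was subtracted (−4.62). The Olr1 value of −2.11 ± 0.61 (adjusted p = 0.00943) was no longer called without saline DMSO replicate 1 (−1.70) or LPS DMSO replicate 1 (−1.52).

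In neutrophils the differences were Marco at −4.92 ± 0.73 (adjusted p = 6.13e-10), Msr1 at −4.28 ± 0.64 (adjusted p = 1.13e-09) and Scarb2 at 1.72 ± 0.30 (adjusted p = 3.52e-07). The Olr1 value of −2.11 ± 0.62 (adjusted p = 0.00539) was no longer called without saline DMSO replicate 1 (−1.43), saline DMSO replicate 2 (−2.03) or LPS DMSO replicate 1 (−1.40). In endothelial cells they were Marco at −3.66 ± 0.64 (adjusted p = 3.40e-05), Msr1 at −3.23 ± 0.44 (adjusted p = 7.45e-07) and Scarb1 at −1.86 ± 0.19 (adjusted p = 4.31e-09). Cd68 at 0.66 ± 0.25 (adjusted p = 0.0416) fell to between 0.10 (without LPS inhibitors replicate 1) and 0.53 (without saline inhibitors replicate 2) and was no longer called on leaving out any single library other than LPS DMSO replicate 1.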

How the results depend on the processing

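Over 280 recomputed counts of called members 270 stayed within 1.5 times the count reported, and over 2461 recomputed values of single members 2363 stayed on the same side of the threshold (166 of them, none called, with the other sign), 45 gained a call, 52 lost one and 1 called value reversed. Members called for LPS in microglia were 8 as reported, 5 in batch 2 alone and 5 to 8 on leaving out single libraries, with 5 without LPS DMSO replicate 1. In neutrophils the 2 became 4 with no count filter, 4 in inhibitor libraries alone and 1 with free RNA subtracted. For the DMSO effect in macrophages the 0 became 1 with no filter (Marco, −1.39). For the difference of LPS changes between ex vivo treatments the 0 became 1 in macrophages under DESeq2 and 0 to 1 on leaving out single libraries in microglia and macrophages. For endothelial cells against microglia the 5 became 3 with the stricter gate. Scarb1 in microglia reversed to −0.056 under library totals. On leaving out single libraries, other counts for LPS were 7 to 7 in macrophages, 7 to 8 in monocytes, 2 to 3 in neutrophils and 4 to 5 in endothelial cells, and for differences from microglia 6 to 7, 7 to 8, 3 to 4 and 4 to 5 in the same order, Olr1 included. A replicate block (batch pairing) gave -0.36 for Cd36 in microglia, -0.49 for Cd68 in monocytes and -1.53 for Mrc1 in endothelial cells, all newly called, and changed no other call of a member for LPS. The cause of these changes was not tested, except that fewer libraries or counts entered where libraries, ex vivo treatments, batches or free RNA were taken out.

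Counts over all genes moved by more than 1.5 times for LPS in macrophages (4287 to 2573 in DMSO libraries, 2589 with the stricter gate), monocytes (3887 to 1458 in DMSO libraries, 2499 in batch 2), neutrophils (1290 to 730 in inhibitor libraries, 630 in DMSO libraries, 567 in batch 1, 516 in batch 2) and endothelial cells (4089 to 2305 in inhibitor libraries, 2053 in DMSO libraries). The macrophage difference from microglia moved from 4631 to 2296 with the stricter gate. DMSO effects ranged over alternatives from 57 to 163 in microglia (79 as reported), 44 to 133 in macrophages (56), 6 to 80 in monocytes (7), 2 to 57 in neutrophils (8) and 3 to 61 in endothelial cells (10), the highest always with no count filter. Differences between ex vivo treatments ranged from 0 to 13 in microglia (5), 0 to 10 in macrophages (4), 0 to 34 in monocytes (0), 0 to 38 in neutrophils (0) and 0 to 13 in endothelial cells (0). Among the 10 members in 5 classes, thinning to 2000 in place of 1000 UMIs left 27 in place of 24 member and class pairs apart by share. Thinned shares were computed for the members only, so no background stands beside these counts and nothing about the receptors is read from them. Over all 8 libraries Olr1 had too few UMIs for a test of LPS outside microglia, and the smallest neutrophil sum came from 49 cells.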
